A study of Homo sapiens with 5 samples.

Results

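The MYC, MAX, MXD and Mondo network was followed through 10 genes, MYC, MYCN, MAX, MXD1, MXD3, MXD4, MXI1, MNT, MLX and MLXIP, in a leukemia line treated with an inhibitor of the kinase GSK-3. Members were taken by name, and each was read from the probe whose annotation names that gene alone. All 10 had exactly 1 such probe and were measured, out of 18417 genes. The cells were labelled RS4.11, which is known as a B cell precursor leukemia line with a rearranged MLL gene, and were grown in vitro; marker levels that go against this label are given further on, and cell identity was not tested. Control cells received the solvent DMSO for 20 h (n = 2 arrays) and treated cells received 10 uM SB216763, a small-molecule GSK-3 inhibitor, for 20 h (n = 3 arrays). The labels name 1 line, 1 dose and 1 time, and they do not tie the arrays to cultures, so the variation behind each p-value may be technical.

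Proteins of this network are basic helix-loop-helix leucine zipper factors that bind DNA in pairs. MYC and MYCN pair with MAX at the E-box, CACGTG, and raise transcription of genes for growth, ribosome assembly and cell division. MXD1, MXD3, MXD4, MXI1 and MNT pair with MAX at the same letters and recruit SIN3 and histone deacetylases, which lowers transcription. MLX is a second hub: it pairs with MLXIP, also called MondoA, which responds to glucose-6-phosphate, and with some MXD proteins and MNT. GSK-3 phosphorylates MYC protein and so marks it for destruction through FBXW7; the arrays measured RNA and not protein.

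Promoter sequences are shown for MXD1, the only member called higher, and for the 3 members whose promoter window held the network's own binding letters. RefSeq windows of assembly GRCh38.p14, from 250 bases before to 50 bases after a gene's start, matched 9 of the 10 members, with 3 windows for MXI1 and 2 for MAX. MYC was not matched. CACGTG, which reads the same on both strands, lay in the windows of MXD4, MNT and MLX, starting 238, 193 and 50 bases before the start, and in 7.26% of all 35116 windows in the table. The stretches below lie before the start and are written 5′ to 3′ on the gene's strand, with CACGTG in capitals. They are chr2:69914859-69915108 on the plus strand for MXD1, chr4:2262302-2262359 on the minus strand for MXD4, chr17:2401208-2401293 on the minus strand for MNT and chr17:42567010-42567095 on the plus strand for MLX.
MXD1: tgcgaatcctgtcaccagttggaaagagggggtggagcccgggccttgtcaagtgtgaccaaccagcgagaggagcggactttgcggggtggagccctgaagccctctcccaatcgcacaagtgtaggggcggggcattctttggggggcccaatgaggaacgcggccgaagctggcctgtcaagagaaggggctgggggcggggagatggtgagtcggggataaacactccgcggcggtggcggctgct
MXD4: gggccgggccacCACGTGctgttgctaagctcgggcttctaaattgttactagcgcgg
MNT: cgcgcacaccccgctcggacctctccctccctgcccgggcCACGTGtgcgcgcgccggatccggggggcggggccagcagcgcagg
MLX: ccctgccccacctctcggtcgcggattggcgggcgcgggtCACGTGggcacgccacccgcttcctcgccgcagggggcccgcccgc
None of the 3 members with CACGTG in the window was called changed, as their values further on show.

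Expression values are log2, so a difference of 1 is a 2-fold change, and all differences are SB216763 minus control. The array medians lay between 6.77 and 6.84. A gene was taken as above background on an array where it exceeded the 95th percentile of the values of olfactory receptor genes, of which there were 341; this limit lay between 5.98 and 6.19. By this measure 9 of the 10 members were above background on all 5 arrays, and MYCN was above it on none. Genes were tested with limma over all 18417 genes and called at a Benjamini-Hochberg adjusted p under 0.05. Over all genes 7.21% were called higher and 5.92% lower, 13.1% together. Of 10 B cell precursor markers 8 were measured and 2, PAX5 and CD79B, were above background on all arrays, while CD22, VPREB1, DNTT and CD24 were above it on none. CD79A was above background on 1 control array and all 3 SB216763 arrays. BLNK, an adaptor of B cell receptor signalling, was the only B cell precursor marker called: it rose from 5.50 ± 0.05 (SD, n = 2), above background on neither control array, to 6.79 ± 0.13 (SD, n = 3), above it on all 3 (limma adjusted p = 0.000585). All 12 myeloid markers were above background on all 5 arrays, with median levels of 7.81 and 7.99 in control and 8.32 to 8.46 with SB216763. These medians hide a split. MPO, CD14, S100A8, S100A9 and FCN1 lay only a little above the limit, with control means from 6.35 to 6.70. The B cell precursor markers PAX5 and CD79B had similar control means, 6.63 and 6.61. The median of their differences was only 0.05, and 9 of the 12 were not called. Of the myeloid markers CD68, CSF3R and LYZ were called higher, by 1.00, 1.23 and 0.78, and none lower; the granule proteins PRTN3, AZU1 and MPO differed by -0.28, -0.20 and -0.23 and were not called. Of 10 T and NK cell markers 7 were above background on no array, and NKG7, a cytotoxic granule protein, was the only one called, higher by 0.88. These levels, with myeloid markers above background, some only a little, and several B cell precursor markers at background, go against the label. The part of these markers in the results for the network was not tested. Of 5 measured erythroid markers 2 were above background on all arrays and 0 were called, with 0 at an unadjusted p under 0.05 by limma.

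MYC RNA was lower and MXD1 RNA higher after SB216763, and the other 8 members were not called in either direction. MYC fell 2.08-fold, with a 95% interval of 1.82 to 2.37, and MXD1 rose 1.42-fold, with an interval of 1.21 to 1.66. Thus 1 member of 10 was called lower and 1 higher, where 5.92% and 7.21% of all genes were, and the count of 2 in 10 is close to that background. The median difference of the members was -0.07, against 0.00 for all genes. Among the 7 uncalled members above background on all arrays the sizes of the differences ran from 0.06 to 0.20. By unadjusted p under 0.05, which 26.5% of all genes met, there were 3 members of 10, MYC, MXD1 and MLXIP, a share near that of all genes. SB216763 and control values did not overlap for 5 members, MYC, MXD3 and MXI1 being lower and MXD1 and MLXIP higher. Over all genes 41.4% did not overlap, 21.6% higher and 19.9% lower.

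**Figure D1:**
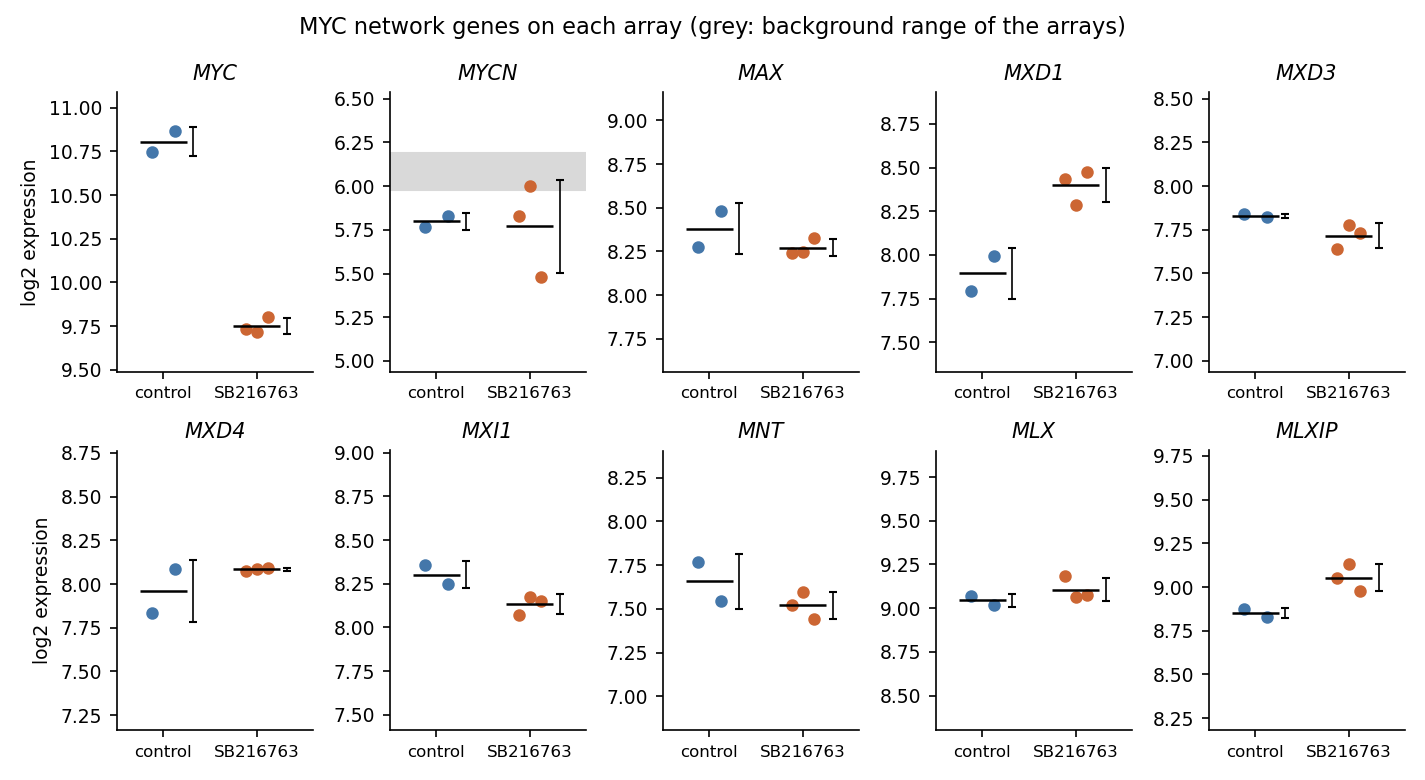
Log2 expression of each of the 10 members, with a point for each array (2 control in blue, 3 SB216763 in orange), a bar at the group mean and an error bar of 1 SD; every panel spans the same range of log2 units, and the grey band is the background of the arrays. MYC falls from 10.75 and 10.86 to between 9.72 and 9.80, MXD1 rises above both control points, and MYCN lies at or below the band.

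MYC, the growth-promoting activator of the network, read 10.75 and 10.86 on the control arrays and 9.74, 9.72 and 9.80 with SB216763. The groups lay 0.94 apart at their nearest arrays, while arrays within a group spread over 0.12 in control and 0.09 with SB216763. The difference was -1.05 (SE 0.08; limma adjusted p = 0.000588), the 44th largest decrease among the 18417 genes. An exact permutation test over the arrays gave p = 0.1 (two-sided), which is the smallest that 2 against 3 arrays allow. The size of the decrease changed little with the arrays used, from -1.11 without control replicate 1 to -0.99 without control replicate 2. The call was lost in both of these cases, at adjusted p = 0.0572 and 0.0557, with 1 control array left.

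MYCN, the paralog of MYC known from neural tumours, was not above background on any array. It read 5.76 and 5.83 in control and 5.83, 5.999 and 5.48 with SB216763. The groups overlapped, and the spread with SB216763, 0.52, exceeded the difference of -0.03 (SE 0.15; limma adjusted p = 0.936). At this level no change could be read from the probe.

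MAX, the shared partner of MYC and the MXD proteins, read 8.28 and 8.48 in control and 8.24, 8.25 and 8.33 with SB216763. The groups overlapped, and control replicate 1 lay among the SB216763 arrays. The difference was -0.11 (SE 0.09; limma adjusted p = 0.532) with a 95% interval of -0.32 to 0.10, which leaves room for a decrease of up to 1.25-fold. The probe is annotated with transcripts of several MAX forms, so forms were not told apart.

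Of the MXD family, MAX partners that oppose MYC at E-boxes, only MXD1 was called. MXD1, known for its rise when myeloid cells and keratinocytes stop dividing and mature, read 7.79 and 7.996 in control. It read 8.44, 8.29 and 8.47 with SB216763. Every SB216763 array was above both control arrays, with 0.29 between the nearest. The difference was 0.51 (SE 0.10; limma adjusted p = 0.0158). The MXD1 call was less stable than its direction. Over the fits that each lacked an array the difference ran from 0.40 to 0.61, but the adjusted p was 0.160 without control replicate 1, 0.0866 without control replicate 2, 0.0720 without SB216763 replicate 1 and 0.0506 without SB216763 replicate 3. It was 0.0164 without SB216763 replicate 2, 0.141 without moderation of the variances and 0.0512 when all 33297 probes were tested singly.

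MXD3, the family member known for expression in dividing cells, read 7.84 and 7.82 in control and 7.64, 7.78 and 7.73 with SB216763. The groups did not overlap, but lay only 0.04 apart. The difference of -0.11 (SE 0.08; limma adjusted p = 0.448) had a 95% interval of -0.30 to 0.08. MXD4, whose window holds CACGTG, read 7.84 and 8.09 in control and 8.08, 8.09 and 8.09 with SB216763. Control replicate 2 lay among the SB216763 arrays, so the difference of 0.12 (SE 0.09; limma adjusted p = 0.472) came from control replicate 1; without that array it was 0.00. MXI1, the remaining family member, read 8.36 and 8.25 in control and 8.07, 8.18 and 8.15 with SB216763. The groups did not overlap, and the difference was -0.17 (SE 0.08; limma adjusted p = 0.246) with a 95% interval of -0.36 to 0.02. The probe's annotation lists several MXI1 transcripts, and RefSeq gives the gene 3 start windows, so transcripts from different starts were not told apart.

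The change of MXD1 was compared with that of each of its 3 paralogs by taking the difference of the log2 values on each array. MXD1 changed by 0.62 more than MXD3, 0.38 more than MXD4 and 0.67 more than MXI1. In each of the 3 comparisons the labelled groups gave the largest difference of the 10 ways to regroup the arrays. MXD1 was the only family member called on these same arrays, so this outcome is not independent of its call. The exact permutation test gave p = 0.1 (two-sided, and 0.1 also after Benjamini-Hochberg adjustment over the 3), the smallest this design allows. The design therefore cannot show at a threshold of 0.05 by this test that MXD1 differed from the rest of the family.

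MNT, the broadly expressed repressor that pairs with MAX or MLX, read 7.77 and 7.55 in control and 7.52, 7.60 and 7.44 with SB216763. The groups overlapped, and the spread within control, 0.22, was larger than the difference of -0.14 (SE 0.10; limma adjusted p = 0.441). Without control replicate 1 the difference was -0.03, and without control replicate 2 it was -0.25, with neither called.

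**Figure D2:**
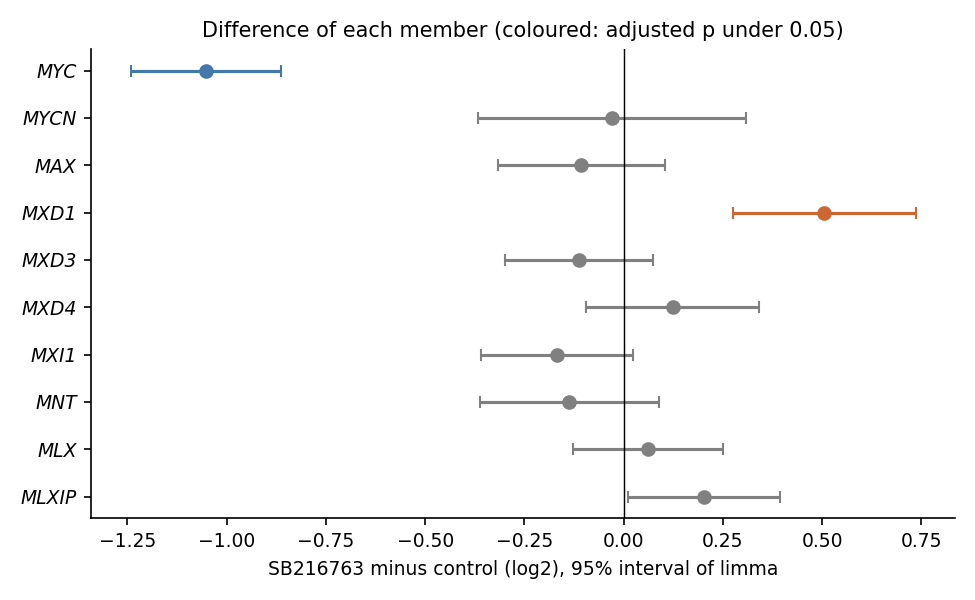
SB216763 minus control (log2) for each member, with the 95% interval of the moderated fit; members with an adjusted p under 0.05 are coloured. The intervals of MYC and MXD1 lie on opposite sides of 0, that of MLXIP begins at 0.01, and those of the other 7 members include 0.

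The Mondo arm of the network was represented by MLX and MLXIP. MLX, the hub, read 9.07 and 9.02 in control and 9.19, 9.06 and 9.07 with SB216763. The groups overlapped, and the difference was 0.06 (SE 0.08; limma adjusted p = 0.713) with a 95% interval of -0.13 to 0.25. MLXIP, which carries the glucose response, read 8.87 and 8.83 in control and 9.05, 9.13 and 8.98 with SB216763. All SB216763 arrays were above both control arrays, by 0.11 at the nearest. The difference was 0.20 (SE 0.08) with a 95% interval of 0.01 to 0.39 and an unadjusted p of 0.0402, which did not pass over all genes (limma adjusted p = 0.164).

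**Figure D3:**
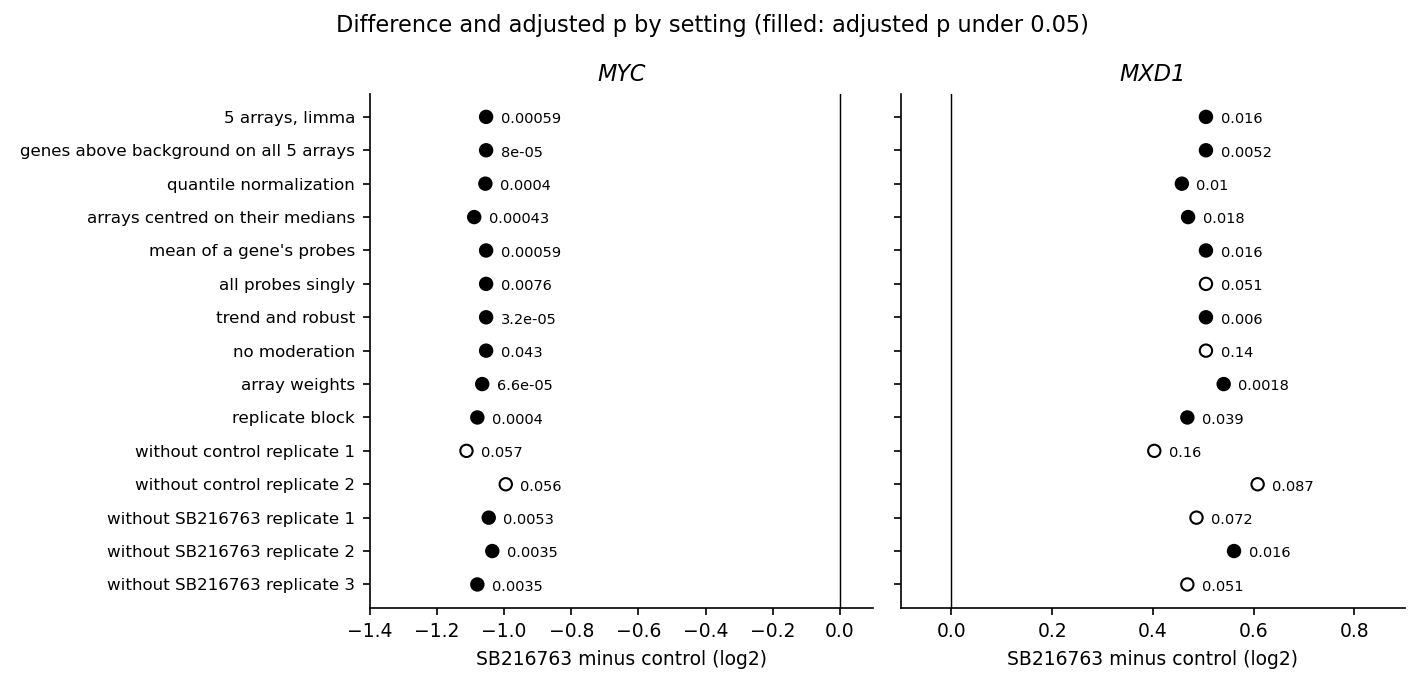
SB216763 minus control (log2) for MYC and MXD1 under each setting of the analysis and with each array left out; the number beside a point is its adjusted p, and filled points have an adjusted p under 0.05. MYC stays between -1.11 and -0.99 and is unfilled only without either control array, while MXD1 stays between 0.40 and 0.61 and is unfilled in 6 settings.

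Other genes tied to the network were counted from lists, each set beside the shares of 7.21% higher and 5.92% lower over all genes. The lists were chosen with earlier results of these data known. At an unadjusted p under 0.05 limma gave 2626 of all 18417 genes higher and 2254 lower. Most listed genes were above background on all arrays, where 12071 of all genes were. A fit to those 12071 called 1643 higher and 1462 lower. Of 4 further network genes, MYCL, MGA, MLXIPL and TFAP4, only TFAP4 was called. TFAP4, a helix-loop-helix factor whose gene MYC activates, fell by 0.55 (SE 0.08; limma adjusted p = 0.00555). MLXIPL, the liver paralog of MLXIP also called ChREBP, differed by -0.31 (limma adjusted p = 0.0612), and MGA and MYCL by 0.17 each. Of 19 measured coactivators of MYC, 4 were called lower and 1 higher, with a median of -0.02. RUVBL1 and RUVBL2, the paired ATPases of chromatin complexes that MYC recruits, fell by 0.62 (SE 0.10) and 0.47 (SE 0.08), and the acetyltransferase CREBBP rose by 0.45 (SE 0.09). Of 15 measured corepressors of the MXD proteins and MNT limma called 0, with 1 higher and 3 lower at an unadjusted p under 0.05 and a median of 0.02. SIN3A, the scaffold that MXD proteins bind, differed by -0.32 (SE 0.09; limma adjusted p = 0.0587), and RBBP7 and BRMS1 by -0.26 and -0.18.

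Of 26 measured genes of MYC protein turnover, 3 were called lower and 2 higher, with a median of -0.07. These are 11.5% and 7.69%, where 5.92% and 7.21% of all genes were. CIP2A, which shields MYC from dephosphorylation by PP2A, fell by 0.75 (SE 0.11). SKP2, a ubiquitin ligase adaptor that acts on MYC, fell by 0.52 (SE 0.08), and BIN1, a MYC-binding adaptor, rose by 0.42 (SE 0.09).

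Genes that MYC is known to activate were called lower more often than all genes in the fit of all 5 arrays. Their list was chosen with earlier results of these data known, so the contrast is no independent test. Of 42 measured, 16 were called lower, 38.1% where 5.92% of all genes were, and 0 higher, also 0 higher at an unadjusted p under 0.05 by limma. The share over all genes includes those below background, whereas 41 of the 42 were above it on all arrays. In the fit to the 12071 genes above background, 23 of the list were called lower, where 1462 of the 12071 were. The list's median difference was -0.29, against 0.00 for all genes. The groups did not overlap for 29 lower and 1 higher, where 19.9% of all genes were lower and 21.6% higher by that measure. TFRC, the transferrin receptor, fell from 11.97 ± 0.09 (SD, n = 2) to 10.75 ± 0.09 (SD, n = 3). MRTO4 and RRP12, of ribosome assembly, fell by 1.09 (SE 0.09) and 0.73 (SE 0.08). Without control replicate 1 or control replicate 2 limma called 0 of the 42, where an unadjusted p under 0.05 gave 27 and 19 lower. The count was 10 when SB216763 replicate 1 was left out. The list's median ran from -0.35 to -0.22 over the 5 fits that each lacked an array.

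Genes that MYC is known to repress were not called higher. Of 13 measured, 2 were called lower, 15.4% where 5.92% of all genes were. Higher calls numbered 0, with 2 higher at an unadjusted p under 0.05 by limma, and the median was 0.04. The called genes were NDRG1, a stress-induced gene that MYC lowers, at -0.84 (SE 0.08), and CDKN1B, which encodes p27, at -0.51 (SE 0.10). Both were lower, as MYC was. GADD45A, a growth arrest gene, differed by 0.26 (SE 0.08; limma adjusted p = 0.0796).

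Of 15 genes driven by MLXIP, MLXIPL and MLX, 5 were called lower, 33.3% where 5.92% of all genes were. Higher calls numbered 0, also 0 at an unadjusted p under 0.05 by limma, and the median was -0.10. The share over all genes includes those below background, whereas 13 of the 15 were above it on all arrays. This list too was chosen with earlier results of these data known, so the contrast is no independent test. FASN, SCD, ACACA and ACLY make or desaturate fatty acids and are also driven by SREBP1, and RGS16 is a regulator of G protein signalling. FASN, SCD and ACACA fell by 0.62 (SE 0.08), 0.99 (SE 0.12) and 0.45 (SE 0.08). TXNIP and ARRDC4, the best known MLXIP targets in other cells, were singled out after their values were seen. TXNIP differed by 0.02 (SE 0.08; limma adjusted p = 0.905) with a 95% interval of -0.15 to 0.20, and ARRDC4 by -0.39 (limma adjusted p = 0.0582).

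These list calls rested on both control arrays. Over all genes limma called 0 higher and 1 lower without control replicate 1, and 0 in each direction without control replicate 2. At an unadjusted p under 0.05 the counts were then 1701 higher and 1902 lower, and 2306 higher and 1654 lower. No gene of the lists was called in either case. Without SB216763 replicate 1 the coactivators had 1 lower and 0 higher, the turnover genes 2 lower and 0 higher, the repressed genes 1 lower and the genes driven by MLXIP and MLX 3 lower. Without SB216763 replicate 3 the coactivators had 3 lower and 0 higher and the turnover genes 2 lower and 0 higher. Without SB216763 replicate 2 the coactivators had 2 higher and the corepressors 1.

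**Figure D4:**
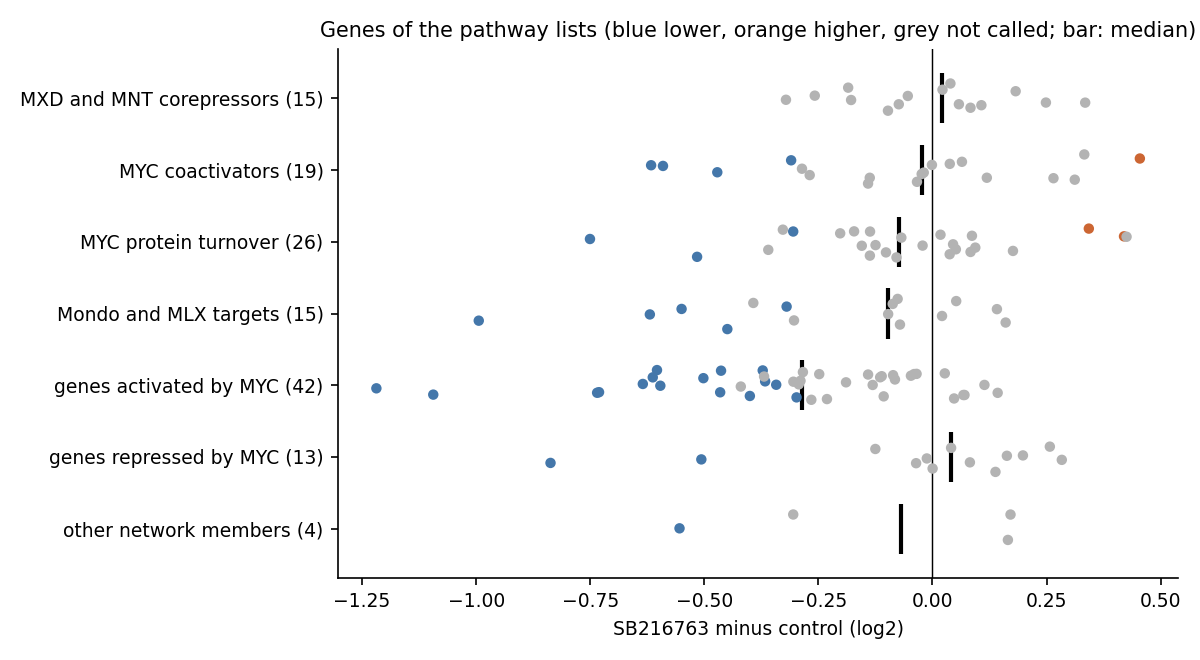
SB216763 minus control (log2) for each measured gene of the 7 lists, with the number measured in parentheses; blue points were called lower, orange higher and grey neither, and the black bar is the list's median. The list of genes activated by MYC has its median at -0.29, and the medians of the other 6 lists lie between -0.10 and 0.04.

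Across the array as a whole, genes with CACGTG in a promoter window were compared with those without. Of 1557 tested genes with the letters 8.41% were called lower and 8.41% higher, and of 12682 without them 5.96% and 7.23%. Among genes above background on all arrays the shares called lower were 10.4% and 8.63% and the shares called higher 9.92% and 9.79%. Over all tested genes the median differences were -0.01 with the letters and 0.00 without. Among those above background on all arrays they were -0.01 and 0.02. The share above background was 78.4% with the letters and 65.9% without. The difference between these shares was not tested.

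For MYC and MXD1, the genes nearest in pattern were found among 12071 genes above background on all arrays, by the root mean square difference of the 5 values after each gene's own mean was removed. Nearest to MYC were CDC25A, a phosphatase that activates cyclin-dependent kinases, at 0.03, and then UBE2T, a ubiquitin-conjugating enzyme of DNA repair, and ANKRD28. CDC25A read 9.06 and 9.13 in control and 7.99, 7.95 and 8.04 with SB216763, a difference of -1.10 (SE 0.08). Nearest to MXD1 were PNISR, TRIM22 and GALK2, each at 0.02, with differences of 0.48, 0.52 and 0.53. These measures rest on 5 arrays and mostly restate the difference between the groups.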

How the data were processed

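The authors deposited 1 table of log2 expression values for 5 Affymetrix whole-transcript arrays, made with Affymetrix Expression Console per the submitters' processing notes. Neither the version nor the method of summarising probes is stated in those notes, and no genome build is. The values ran from 1.95 to 14.84, which is how they were taken to be log2, and no further normalization was applied. Groups and replicate numbers came from sample titles. Of 33297 probes, 19460 named exactly 1 gene symbol, 1754 named several and 12083 had none; for the 769 genes with several probes the one with the highest mean was used. The comparison was a two-sided moderated test of limma 3.58.1 under R 4.3.3 (lmFit and eBayes at default settings), adjusted by Benjamini-Hochberg over 18417 genes, with a threshold of 0.05. The rule for naming was every member, up to 3 genes of each pathway list by smallest p, and the 3 genes nearest in pattern to each called member. Outside it, MYCL was named to complete its list, ACLY and RGS16 to complete a count of 5, TXNIP and ARRDC4 after their values were seen, and cell type markers to check the label. The members and lists were chosen with earlier results of these data known. In 5 simulations of this comparison on 18417 genes, each with 200 changed genes, 93.4% of 1.5-fold and 99.8% of 2-fold changes were recovered, and 7.79% of calls were unchanged genes. The simulated noise was normal and independent between arrays and genes. Its variances were limma's moderated ones shuffled over genes, which removes the noisiest genes and any link of variance to level. The share of changed genes was below the 13.1% called here. These rates therefore hold for that setting only. Alternatives dropped dim genes, normalized by quantiles, centred arrays, averaged probes, tested all probes singly, used a variance trend with robust settings, dropped the moderation, weighted arrays, took replicate numbers as a block or left out each array.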

Additional observations from a re-analysis of the deposited data

How the results depend on the processing

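Across the 14 alternatives the members gave 139 values, of which 135 kept their direction; the 4 that did not were all of MYCN, which is below background. Its difference was 0.015 with array weights, 0.12 with the replicate block and from -0.14 to 0.12 with an array left out. The array weights were 8.54 for SB216763 replicate 1, 0.31 for replicate 2, 0.65 for replicate 3 and 0.76 for each control array. Under array weights the SB216763 mean therefore came mostly from 1 array. Genes called higher and lower numbered 689 and 569 with all probes tested singly, 126 and 125 without moderation and 2568 and 2152 with array weights, and with an array left out from 0 to 1680 and from 0 to 1179. The count of members called higher was 0 with all probes singly, 0 without moderation and from 0 to 1 with an array left out. The count called lower was 2 with array weights, where MXI1 passed (-0.22, adjusted p = 0.0466), and from 0 to 1 with an array left out. Of the genes activated by MYC, 10 were lower with all probes singly, 25 with trend and robust settings, 3 without moderation, 25 with array weights and 0 to 14 with an array left out. Genes driven by MLXIP and MLX called higher numbered 0 in all 14, and an unadjusted p under 0.05 gave 1, when SB216763 replicate 2 was left out, and 0 in the other 13. The labels do not say whether the replicate numbers pair the arrays. Deviations of same-numbered arrays from their group means correlated at -0.05 and -0.10. With 2 control arrays, whose deviations mirror each other, both values rest on the same control difference. They therefore cannot decide whether the arrays were paired. The block, which drops SB216763 replicate 3, gave MYC -1.08 and MXD1 0.47 (adjusted p = 0.0386) and changed no member's call. The causes of these shifts were not tested, other than that a fit with 1 control array takes its spread from the SB216763 arrays alone.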
